A study of Homo sapiens with 10 samples.

Results

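CD48 and 7 receptors of the signaling lymphocytic activation molecule (SLAM) family, namely CD244, CD84, SLAMF1, SLAMF6, LY9, SLAMF7 and SLAMF8, were followed in NB4 cells after GSE1 knockdown (KD) and after LSD1 inhibition. The 8 genes were taken by symbol as protein-coding genes, out of 60603 genes listed. NB4 cells are an established line of acute promyelocytic leukemia, arrested at the promyelocyte stage. In the first experiment the cells were transduced with lentivirus carrying an empty vector, pLKO.1 puro (EV), or this vector with 1 of 2 shRNAs against GSE1, shA1 and shB2, and RNA was taken at 48 h. In the second experiment, cells were treated for 24 h with 2 µM MC2580, an inhibitor of the histone demethylase LSD1 (gene KDM1A), or with the solvent DMSO. mRNA-seq was performed on 2 biological replicates of each of the 5 groups, all from this single line, and EV carries no hairpin.

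SLAM family receptors are immunoglobulin-type surface proteins of blood cells, and most of them bind a copy of themselves on the neighboring cell. CD48 is the exception in its build and its partner. It is held in the membrane by a lipid (GPI) anchor, has no cytoplasmic tail of its own, and is the ligand of CD244, an NK cell and myeloid receptor also known as 2B4. Most of the other receptors signal through tyrosine motifs in their tails, which recruit the small adaptors SAP (SH2D1A) and EAT-2 (SH2D1B), Src family kinases and the phosphatases SHP-1, SHP-2 and SHIP-1. In myeloid cells the family is known for its part in phagocytosis, in bacterial killing and in the dialogue with NK cells.

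All 8 genes lie on the long arm of chromosome 1 (GRCh38, GENCODE release 44). CD48 (ENSG00000117091.10) spans chr1:160678746-160711831 on the minus strand. From left to right, SLAMF6, CD84, SLAMF1, CD48, SLAMF7, LY9 and CD244 fill 377.857 kb with no other protein-coding gene between them. SLAMF8 (chr1:159826811-159837492, plus strand) stands apart, with its start 885 kb from that of CD48. The promoters of CD48, CD244 and SLAMF8 are printed because CD48 and SLAMF8 are the members that passed the threshold of the study in at least 1 comparison, and CD244 is the receptor of CD48 and passed on its p-value alone with shB2. The windows are the RefSeq promoters on GRCh38.p14, 250 bases before and 50 bases after each start, read 5′ to 3′ on the strand of the gene, and 5 of the 8 members had one. In CD48 (chr1:160711773-160712072, minus strand) the first run of capitals marks the site of the reverse primer that the study designed for chromatin immunoprecipitation at this promoter, and the second marks a GGAAGT match. In CD244 (chr1:160862838-160863137, minus strand) the capitals mark a match to TTCNNNGAA, and in SLAMF8 (chr1:159826623-159826922, plus strand) they mark GGAAGT on the opposite strand and then an NF-kappaB motif.
CD48 promoter: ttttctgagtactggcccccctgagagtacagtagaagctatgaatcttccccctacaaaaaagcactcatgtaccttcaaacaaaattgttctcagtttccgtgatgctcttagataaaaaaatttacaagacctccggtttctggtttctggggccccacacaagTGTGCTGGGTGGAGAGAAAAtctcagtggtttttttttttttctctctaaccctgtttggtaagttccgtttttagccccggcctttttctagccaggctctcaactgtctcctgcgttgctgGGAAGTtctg
CD244 promoter: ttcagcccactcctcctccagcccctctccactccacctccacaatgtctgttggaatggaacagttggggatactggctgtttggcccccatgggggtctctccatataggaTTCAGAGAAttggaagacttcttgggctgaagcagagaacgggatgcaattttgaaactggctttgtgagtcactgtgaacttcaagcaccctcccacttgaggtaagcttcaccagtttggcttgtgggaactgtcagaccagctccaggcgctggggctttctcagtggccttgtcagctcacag
SLAMF8 promoter: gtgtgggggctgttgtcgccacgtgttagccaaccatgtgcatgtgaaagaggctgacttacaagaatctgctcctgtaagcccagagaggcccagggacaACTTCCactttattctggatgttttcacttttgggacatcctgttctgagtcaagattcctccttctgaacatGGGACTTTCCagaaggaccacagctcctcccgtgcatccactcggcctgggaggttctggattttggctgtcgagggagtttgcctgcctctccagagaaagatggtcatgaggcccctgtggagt

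The primer pair of the study for the CD48 promoter is shown because it places the region that was probed for GSE1 binding against the CD48 start. Each primer matched chromosome 1 once, the forward primer at chr1:160711725-160711744 and the reverse primer at chr1:160711886-160711905. The 181-base amplicon covers the annotated CD48 start, with 74 bases upstream and 106 bases downstream of it.
Forward primer: TTCCAGAGCCAGACACGAAT
Reverse primer: TGTGCTGGGTGGAGAGAAAA

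Short motifs of 6 factor families were searched on both strands of the 5 promoters, and overlaps between motifs were allowed. GGAAGT, the ETS motif bound by PU.1, was found once in CD48, SLAMF8 and SLAMF6, and is held by 22.8% of all 35116 promoters. TTCNNNGAA, the STAT motif, was found in CD244 alone of the 5 and is held by 7.66% of all promoters. AATCAC, the core of the GFI1 motif, was found in SLAMF1 alone of the 5 (10.2% of all promoters) and the NF-kappaB motif in SLAMF8 alone of the 5 (25.6%). The core of the interferon-stimulated response element (3.57%) and TTGCNNAA, the C/EBP motif (10.5%), were found in none of the 5. The CD48 window had a GC content of 44.7%, against a median of 58.7% over all promoters. A match describes the letters in these windows and not a bound site.

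The tables give, per gene, a base mean (the average of normalized counts over the libraries of an experiment), a log2 fold change (FC) with its standard error (SE) and an adjusted p-value, but no value per library. Spread between replicates is therefore seen only through the SE, and levels per group are those that the base mean and the FCs imply. A gene was counted as upregulated or downregulated when the adjusted p-value was below 0.01 and the log2 FC over 1 in size, the threshold used in the study. In these bulk samples, a change in the share of cells carrying a transcript and a change in the RNA per cell cannot be told apart. Across all genes, the median log2 FC was between -0.00 and 0.00 in each comparison. GSE1 itself fell by 0.77 with shA1 (adjusted p-value 2.47e-07) and by 0.79 with shB2 (adjusted p-value 7.66e-08) on the log2 scale, and had a log2 FC of 0.07 with MC2580 (adjusted p-value 1.00). KDM1A, the target of MC2580, had log2 FCs of -0.03, 0.03 and -0.05 in the 3 comparisons, none of which passed.

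CD48 was upregulated in all 3 comparisons and was the only member that was. With shA1, 1 of the 4 members with an adjusted p-value was upregulated (CD48), where 4.32% of all genes tested were. With shB2, 2 of 5 were upregulated (CD48 and SLAMF8), where 5.58% of all genes were. With MC2580, 1 of 4 was upregulated (CD48), where 0.587% of all genes were. No member was downregulated, against 0.786% of all genes with shA1, 2.91% with shB2 and 0.0162% with MC2580. Members with an adjusted p-value had a median log2 FC of 0.43 with shA1, 1.03 with shB2 and 0.17 with MC2580. The remaining members, 4 with shA1 and MC2580 and 3 with shB2, were too low to be given an adjusted p-value.

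**Figure D1:**
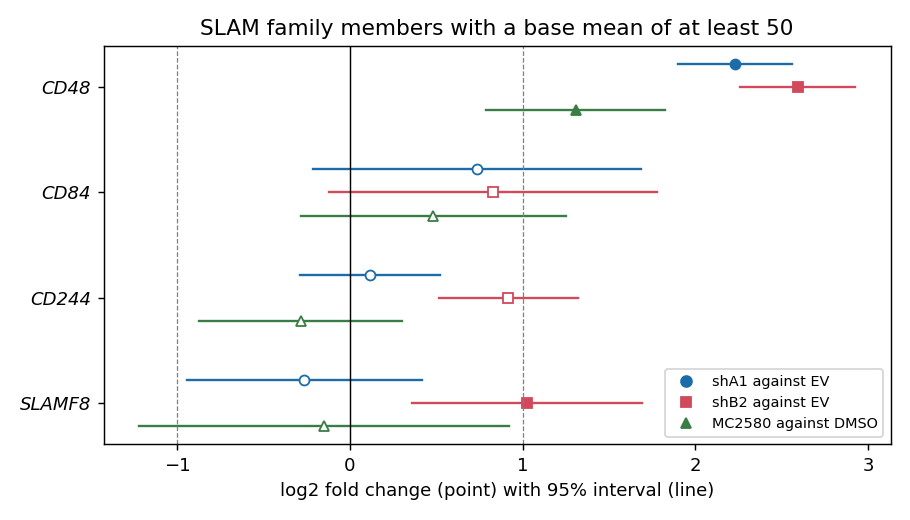
Log2 FC (x axis) of the 4 members whose base mean reached 50, for shA1 (circles) and shB2 (squares) against EV and MC2580 (triangles) against DMSO. Lines are 95% intervals, filled symbols passed the threshold, and dashed lines mark a log2 FC of 1 in size. CD48 is the only gene with 3 filled symbols, and SLAMF8 has one, for shB2.

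Per kb of transcript, CD48 had the highest level of the members in each group. Its implied level was 321 normalized counts in EV, 1504 in shA1 and 1936 in shB2. In the second experiment it was 236 in DMSO and 584 in MC2580. Both knockdown levels lay far above EV, and the MC2580 level above DMSO, by more than the SE of each level, which was between 0.11 and 0.19 on the log2 scale. The log2 FC was 2.23 with shA1 (SE 0.17, adjusted p-value 5.51e-37), which is a 4.69-fold increase with a 95% interval from 3.73 to 5.90. With shB2 it was 2.59 (SE 0.17, adjusted p-value 1.69e-50), a 6.03-fold increase with an interval from 4.79 to 7.58. With MC2580 it was 1.31 (SE 0.26, adjusted p-value 0.000215), a 2.48-fold increase with an interval from 1.73 to 3.55, and this call was lost with a log2 FC limit of 2 and in a Wald test against a log2 FC of 1. Ordered by p-value, CD48 was in place 26 of the 720 genes upregulated with shA1, 13 of 999 with shB2 and 58 of 109 with MC2580.

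The size of the CD48 increase was compared between the treatments by a Wald test on the difference of the log2 FCs. Between shB2 and shA1 the difference was 0.36 (95% interval -0.10 to 0.83, adjusted p-value 0.463), so that a difference between the hairpins was not shown. The shared EV libraries make this interval too wide. With the EV part taken out of the SE, the adjusted p-value was 0.0912. MC2580 raised CD48 less than shB2, by 1.28 on the log2 scale (difference -1.28, SE 0.31, adjusted p-value 0.00121). Against shA1 the difference was -0.92 (SE 0.31, adjusted p-value 0.0652), which missed the threshold. Both experiments also differ in time and in control, and these cannot be told apart from the agent. Of all genes tested, 3.03% differed between the hairpins, 2.01% between MC2580 and shA1 and 4.51% between MC2580 and shB2, and among the members 0 of 4, 0 of 4 and 1 of 4 did.

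**Figure D2:**
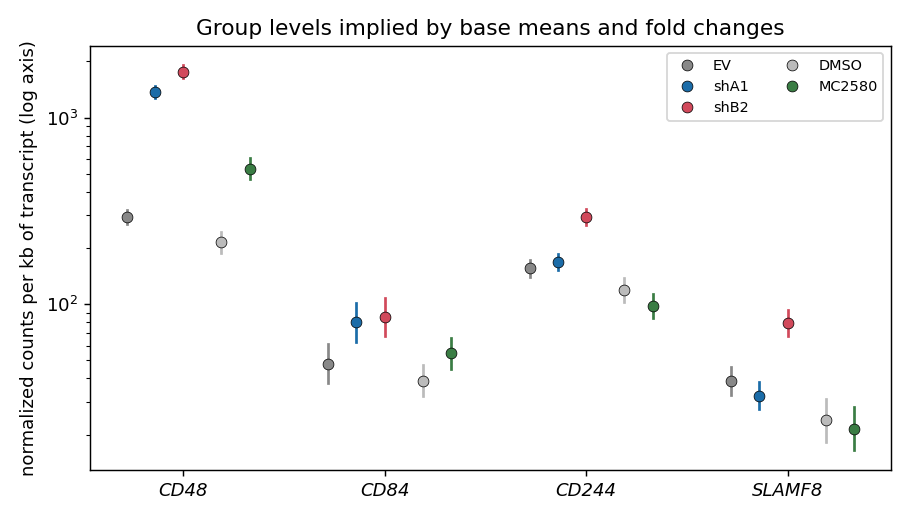
Implied group levels in normalized counts per kb of transcript (y axis, log scale) for the 4 measurable members in EV, shA1, shB2, DMSO and MC2580; lines are 1 SE of the log2 level. CD48 is the highest of the 4 in each group, from 215 in DMSO to 1764 in shB2.

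CD244, the receptor for CD48, was the second most abundant member per length of transcript. Its implied level was 155 normalized counts per kb in EV, 169 in shA1 and 293 in shB2. It was 119 in DMSO and 97.8 in MC2580. The shB2 level lay above EV by more than the SE of each level. The MC2580 level lay below DMSO by less than the SE of the log2 FC (0.30), and the change did not pass. The log2 FC of 0.92 with shB2 (SE 0.21, adjusted p-value 5.54e-05) is a 1.89-fold increase (95% interval 1.43 to 2.49) that passed on the p-value and missed the FC limit. Of all genes with shB2, 14.2% were higher by the p-value alone. With shA1 it was 0.12 (SE 0.21, adjusted p-value 0.775) and with MC2580 -0.29 (SE 0.30, adjusted p-value 1.00). The difference between the hairpins was 0.80 (95% interval 0.23 to 1.37, adjusted p-value 0.0565), and with the EV part taken out of the SE the adjusted p-value was 0.000857, still with a difference under 1. CD48 was higher than CD244 per kb in each group, at 293 against 155 in EV and 1371 against 169 in shA1.

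CD84, a receptor that binds itself and is carried by platelets, B cells and myeloid cells, had estimates above 0 in all 3 comparisons and passed in none. Its implied level was 394 normalized counts in EV, 655 in shA1 and 700 in shB2. It was 319 in DMSO and 446 in MC2580. Per kb of its long transcript these are the values 48.0, 79.9, 85.3, 38.9 and 54.4. The log2 FC was 0.73 with shA1 (SE 0.48, adjusted p-value 0.294), 0.83 with shB2 (SE 0.48, adjusted p-value 0.193) and 0.48 with MC2580 (SE 0.39, adjusted p-value 1.00). The 95% interval of the fold with shB2 ran from 0.920 to 3.43, which holds both no change and increases larger than that of SLAMF8 with shB2. CD84 was measured less precisely than other genes of its level. Its SE in the knockdown experiment was larger than that of 98.6% of the 2010 genes within 1.5-fold of its base mean, whose median SE was 0.19, and in the MC2580 experiment larger than that of 98.3% of such genes.

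SLAMF1, SLAMF6 and LY9, which bind themselves and are best known on T and B cells, were close to the limit of detection. Summed over the 6 knockdown libraries they had 35.8, 16.2 and 21.1 normalized counts, and over the 4 libraries of the MC2580 experiment 7.37, 14.8 and 3.13. SLAMF1 (CD150) had an implied level of 0.324 in EV, 6.33 in shA1 and 11.2 in shB2. Its fitted log2 FC with shB2, 5.12 (SE 2.20), had an adjusted p-value of 0.0579, and with shA1 the unadjusted p-value was 0.0511. LY9 (CD229) had an implied level of 0.192 in EV, 5.82 in shA1 and 4.53 in shB2, with unadjusted p-values of 0.0433 and 0.0631. SLAMF6 (NTB-A) had an implied level of 0.607 in EV, 6.14 in shA1 and 1.36 in shB2, with unadjusted p-values of 0.184 and 0.655. In all 3 genes the hairpin libraries held more of the few counts than EV did, and none passed the threshold. With MC2580 their unadjusted p-values were 0.574, 0.865 and 0.875 for SLAMF1, SLAMF6 and LY9. With so few counts the SEs of the log2 FCs were above 2 in these 3 genes, and neither a change nor its absence was shown.

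SLAMF7 (CRACC), a self-binding receptor of NK cells, plasma cells and macrophages, was as low, with 20.3 normalized counts in the knockdown libraries together and 7.84 in the MC2580 experiment. Its implied level was 3.28 in EV, 4.17 in shA1 and 2.69 in shB2. It was 0.317 in DMSO and 3.60 in MC2580, where the unadjusted p-value was 0.303. The EV, shA1 and shB2 levels lay within 1 SE of each other.

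SLAMF8, a myeloid member with a short cytoplasmic tail, rose with shB2 and did not pass the threshold with shA1 or MC2580. Its implied level was 121 normalized counts in EV, 101 in shA1 and 246 in shB2. It was 74.3 in DMSO and 67.0 in MC2580. Of the 3 treated groups, shB2 alone lay above its control. With shB2 the log2 FC was 1.03 (SE 0.34, adjusted p-value 0.00973), a 2.04-fold increase with a 95% interval from 1.28 to 3.23, just inside the threshold in both its p-value and its FC. The call was lost with a log2 FC limit of 2, in a Wald test against a log2 FC of 1 and when p-values were adjusted over every gene that had one. With shA1 it was -0.26 (SE 0.35, adjusted p-value 0.676) and with MC2580 -0.15 (SE 0.55, adjusted p-value 1.00). The difference between the hairpins was 1.29 (95% interval 0.34 to 2.24, adjusted p-value 0.0696). With the EV part taken out of the SE it had an adjusted p-value of 0.00142 and passed. The difference between MC2580 and shB2 was -1.17 (SE 0.64, adjusted p-value 0.274) and did not pass. For CD244 and SLAMF8 the p-value of the difference between the hairpins therefore depended on how the shared EV libraries entered the SE. An overlapping gene on the opposite strand of SLAMF8, AL590560.1, had a base mean of 9.73, and AL121985.1, opposite CD48, one of 1.88, against 156 and 1254 for SLAMF8 and CD48. The libraries do not keep the strand, so such reads cannot be told apart.

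**Figure D3:**
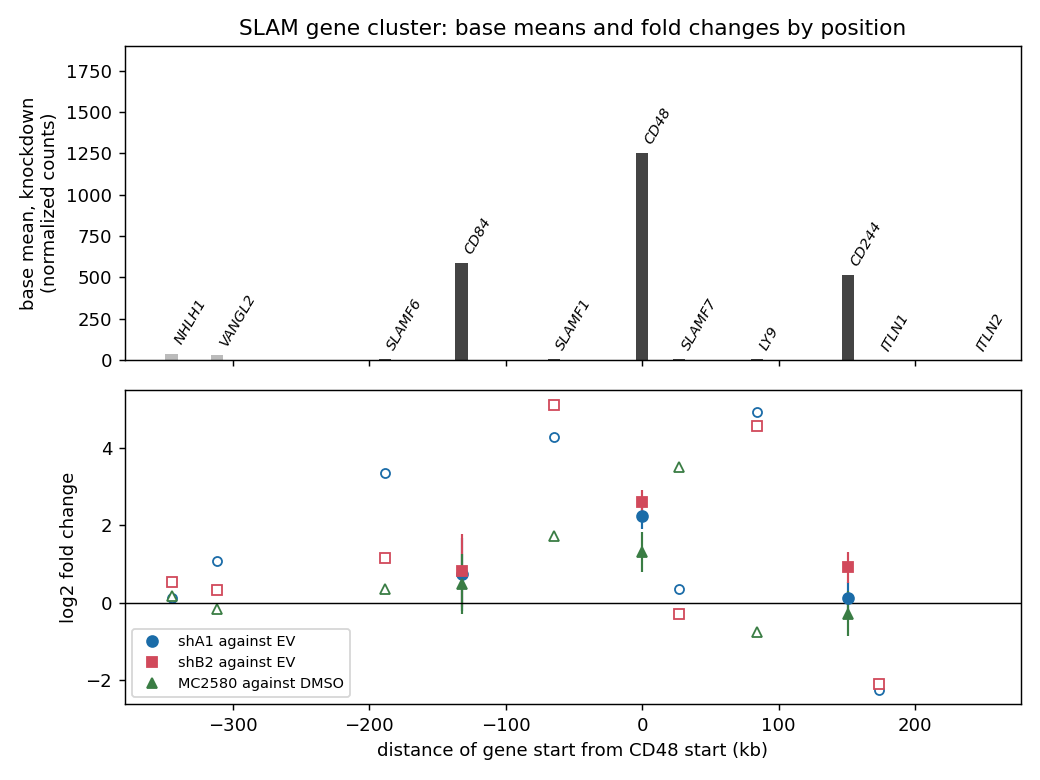
Base mean in the knockdown experiment (upper panel, normalized counts) and log2 FC (lower panel) against the distance of each gene's start from the CD48 start in kb, for the 7 clustered members (dark bars) and the 2 protein-coding neighbors on each side (pale bars). Filled symbols mark base means from 50 up in the knockdown experiment and carry 95% intervals. Open symbols mark lower base means and are drawn without intervals. CD48, CD84 and CD244 are the only tall bars, with silent or near-silent members between them.

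Along the cluster, 3 genes had high base means and 4 were near-silent. Of the 3, CD84 had a large SE for its base mean. CD48 had a base mean of 1254 in the knockdown experiment, CD84 of 583 and CD244 of 514, while the 4 genes between and beside them had base means of at most 5.96. Of the neighbors outside the cluster, NHLH1 and VANGL2 had an adjusted p-value and passed in no comparison, with SEs from 0.58 to 0.79. ITLN1 and ITLN2 had no adjusted p-value and could not pass. Of all genes tested, 4.32% were upregulated with shA1, 5.58% with shB2 and 0.587% with MC2580. NHLH1 (base mean 37.9) had a log2 FC of 0.12 with shA1 and 0.54 with shB2, VANGL2 (26.3) of 1.08 and 0.33, ITLN1 had a base mean of 0.271 and ITLN2 was listed at 0. Next to SLAMF8, CFAP45 (61.5) had a log2 FC of 0.03 with shA1 and 0.17 with shB2, and DUSP23, FCRL6 and VSIG8 had base means of 9.61, 3.98 and 0.880.

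The proteins that couple the receptors to the cell interior were examined as a list of 20 adaptors, kinases and phosphatases, of which 17 had an adjusted p-value in each comparison. Both SLAM adaptors were near 0, SH2D1A with a base mean of 0.116 and SH2D1B with 0.423, as was the T cell kinase LCK with 0.431. With shA1, 3 of the 17 were upregulated and 0 downregulated, with shB2 2 were upregulated and 2 downregulated, and with MC2580 0 passed. The shares of all genes were 4.32% up and 0.786% down with shA1, 5.58% and 2.91% with shB2 and 0.587% and 0.0162% with MC2580. The median log2 FC of the list was 0.37, 0.37 and 0.06. SRC had an implied level of 74.9 normalized counts in EV, 209 in shA1 and 229 in shB2, and rose by log2 FCs of 1.48 (adjusted p-value 8.08e-05) and 1.61 (adjusted p-value 8.83e-06). DOK2, an inhibitory docking protein of myeloid cells, had an implied level of 168 in EV, 342 in shA1 and 616 in shB2, and rose by log2 FCs of 1.03 and 1.88. FGR, a myeloid Src family kinase, passed with shA1 only, with log2 FCs of 1.39 (adjusted p-value 0.00154) and 0.93 with shB2 (adjusted p-value 0.0437), and the difference between the hairpins missed the threshold (adjusted p-value 0.803).

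FYN, the kinase that SAP recruits, had a base mean of 2628 and passed the threshold in none of the 3 comparisons. With shB2 it passed on the p-value and missed the FC limit (log2 FC 0.83, adjusted p-value 1.12e-11). With shA1 (0.18, adjusted p-value 0.273) and MC2580 (0.14) it did not pass on the p-value. Its difference between the hairpins was 0.65 (Wald test, adjusted p-value 0.00146), which missed the FC limit. PTPN11, which encodes the phosphatase SHP-2, was downregulated with shB2 (log2 FC -1.58, SE 0.09, adjusted p-value 7.04e-63) and had a log2 FC of -0.23 with shA1 (adjusted p-value 0.0470). PRKCQ, a protein kinase C downstream of SAP in T cells, was downregulated with shB2 (log2 FC -1.94, SE 0.22, adjusted p-value 1.91e-16), with a log2 FC of -0.06 with shA1. For both genes the difference between the hairpins passed the threshold. At any FC, 10 genes of the list passed on the p-value with shA1, 10 of them higher, and with shB2 8 were higher and 3 lower. Of all genes tested, 11.3% passed on the p-value as higher and 7.99% as lower with shA1, and 14.2% and 12.1% with shB2.

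Of the partners of SLAMF7 in phagocytosis, ITGAM (CD11b), the alpha chain of the integrin Mac-1, was upregulated in all 3 comparisons like CD48, with log2 FCs of 2.95, 2.99 and 2.07. FCER1G, an Fc receptor chain with an activating motif, rose with shA1 (1.46) and shB2 (2.11), and had a log2 FC of 1.00 with MC2580 (adjusted p-value 0.219). TYROBP (DAP12) passed with shB2 (1.34, adjusted p-value 6.41e-13) and missed the FC limit with shA1 (0.66, adjusted p-value 0.00142). ITGB2, the beta chain of Mac-1, passed on the p-value with both hairpins at 0.99 and 0.64. The median log2 FC of these 4 genes was 1.23 with shA1, 1.72 with shB2 and 0.61 with MC2580. The 4 partners of SLAMF1 in the phagosome (BECN1, PIK3C3, PIK3R4 and UVRAG) had 0 genes past the threshold in any comparison, and a median log2 FC of -0.11, 0.11 and -0.12. Of all genes, 4.32% were upregulated with shA1, 5.58% with shB2 and 0.587% with MC2580. On the p-value alone, PIK3R4 was lower with shA1 (-0.52, adjusted p-value 0.00752) and shB2 (-0.62, adjusted p-value 0.000643). UVRAG was higher with shB2 (0.60, adjusted p-value 3.72e-05). BECN1 and PIK3C3 did not pass on the p-value.

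**Figure D4:**
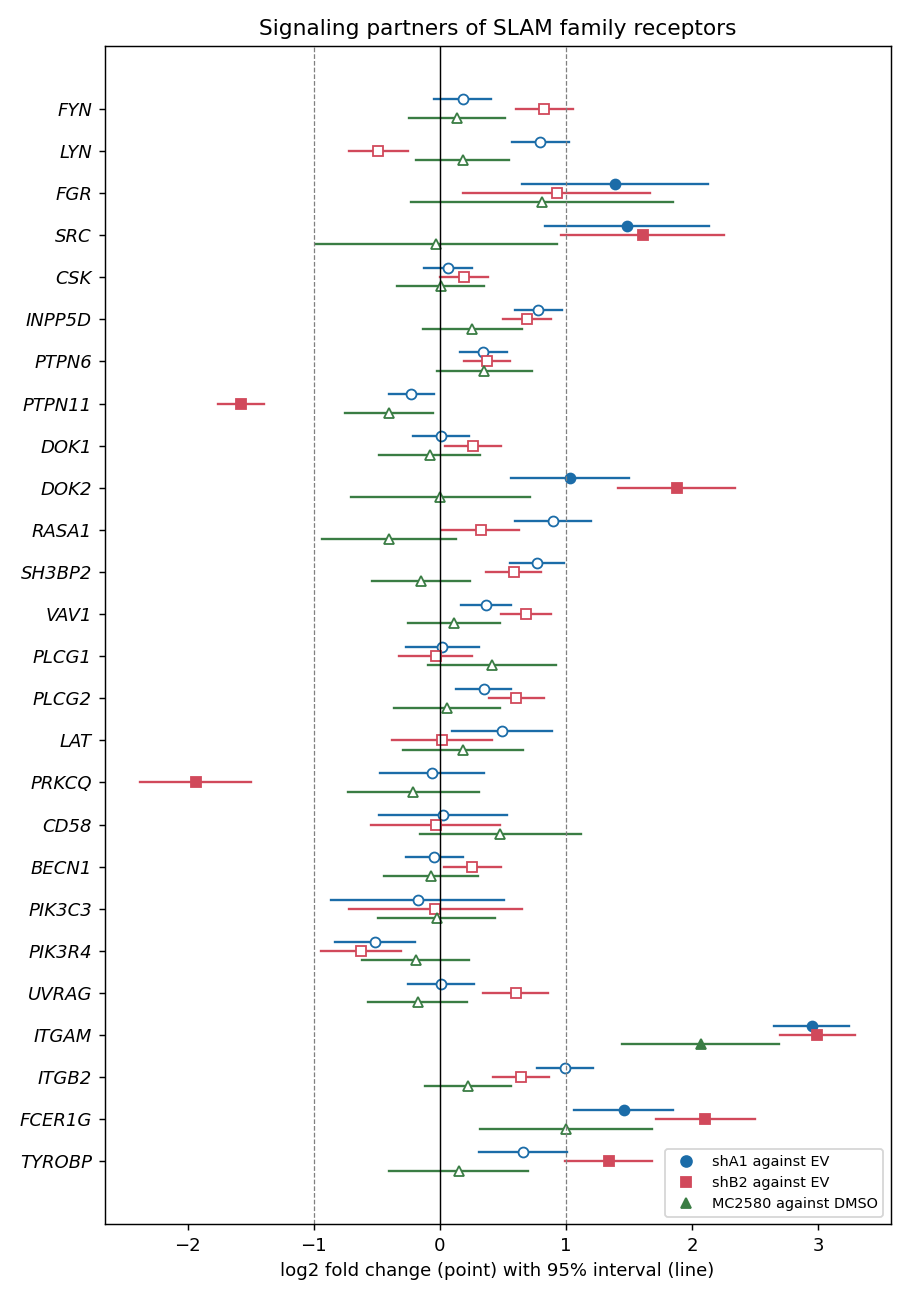
Log2 FC (x axis) with 95% intervals of 26 signaling partners and ligand genes with an adjusted p-value in at least 1 comparison and SEs under 1; symbols as in the plot of the members, filled where the threshold was passed. SRC and DOK2 are filled for both hairpins on the right, PTPN11 and PRKCQ for shB2 alone on the left, and ITGAM for all 3 comparisons.

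CD2, the T and NK cell receptor that can also bind CD48, had an implied level of 0.615 normalized counts in EV, 1.58 in shA1 and 37.0 in shB2. It passed with shB2 (log2 FC 5.91, SE 1.71, adjusted p-value 0.00246) at a base mean of 13.1. With shA1 its log2 FC was 1.36 (SE 1.87, adjusted p-value 0.692), which did not pass. A hairpin difference in CD2 was not shown (Wald test, adjusted p-value 0.326). CD58, the usual human CD2 ligand, had log2 FCs of 0.03 and -0.03 with the hairpins and 0.48 with MC2580, none of which passed. SLAMF9 was near 0, with a base mean of 0.327 in the knockdown experiment. CD2 and CD58 were the 2 genes of this list of 3 with an adjusted p-value.

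The genes whose 3 log2 FCs lay nearest to those of CD48 were ranked by Euclidean distance among 10915 other protein-coding genes whose base mean reached 50 in both experiments. EPHB3, an ephrin receptor, was nearest at 0.25, with log2 FCs of 2.15, 2.36 and 1.32. RCN3, a calcium-binding protein of the secretory pathway, followed at 0.30, ARHGEF3, a guanine nucleotide exchange factor, at 0.49, MYOF, a membrane repair protein, at 0.50 and CRISPLD2 at 0.53. EPHB3 and CRISPLD2 also passed the threshold in all 3 comparisons, as 45 of 16495 genes did, whereas RCN3, ARHGEF3 and MYOF missed it with MC2580 (adjusted p-values 0.513, 0.463 and 0.0160). The 5 genes were picked for log2 FCs close to those of CD48, so these passes largely follow from the choice. The SEs of EPHB3 (0.42, 0.42 and 0.27) and RCN3 (0.56, 0.56 and 0.58) were larger than their distances. No member of the SLAM family was among the 5, but SLAMF1, SLAMF6, LY9 and SLAMF7, with base means under 50, could not enter the ranking.

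Since SLAM receptors are carried by several blood cell types, the defining markers of these were read beside the members. The 6 promyelocyte markers summed to 726420 implied normalized counts in EV, 437194 in shA1 and 387005 in shB2, and to 763996 in DMSO and 916317 in MC2580, nearly all from MPO, and ELANE was near 0 with a base mean of 1.10. Of the 5 with an adjusted p-value, 2 were downregulated with each hairpin and 0 with MC2580, against 0.786%, 2.91% and 0.0162% of all genes. CD33 had log2 FCs of 0.26 with shA1 and 0.43 with shB2, the latter with an adjusted p-value of 0.000751. The 4 monocyte markers summed to 458, 1165 and 516 in EV, shA1 and shB2, and to 538 and 960 in DMSO and MC2580. Most of these sums came from CSF1R, with 448, 1120 and 437 in EV, shA1 and shB2, and 515 and 944 in DMSO and MC2580. With MC2580 the log2 FC of CSF1R was 0.88 (adjusted p-value 0.0638), which did not pass. CD14, MARCO and MSR1 were low in DMSO and MC2580, and none was higher in MC2580. CSF1R was upregulated with shA1 (log2 FC 1.32), CD14 (2.88) and MARCO (4.43) with shB2. The shares of all genes upregulated were 4.32% with shA1 and 5.58% with shB2. With shA1, CD14 had a log2 FC of 2.39 (adjusted p-value 0.0200) and MARCO 2.68 (adjusted p-value 0.194), which did not pass. For CD14 and MARCO a hairpin difference was not shown (Wald test, adjusted p-values 0.953 and 0.818). CD14 and MARCO were low, with base means of 31.6 and 12.5, and MSR1 was near 0 with a base mean of 0.544. The 4 NK cell markers summed to 789, 1122 and 1982, and to 880 and 896, nearly all from NCAM1 (787, 1097 and 1974 in EV, shA1 and shB2). NCAM1 was upregulated with shB2 (1.33), while KLRF1 and NCR1 were near 0. The 4 B cell markers summed to 875, 1209 and 1579, and to 856 and 992, with MS4A1 at a base mean of 0.217, and the 4 T cell markers to 1211, 1180 and 672, and to 1070 and 904, with CD3E at 1.55. Most of the B cell sum came from CD79B and most of the T cell sum from CD3D. The lower T cell sum with shB2 came from CD3D, which was downregulated (-1.29), while the implied level of CD8A was 103 in EV and 165 in shB2, that of CD3G 10.9 and 59.5, and the median log2 FC of the 3 T cell markers with an adjusted p-value was 0.68. The part of these shifts in the values of CD48, CD244 and SLAMF8 was not tested.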

How the data were processed

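The authors prepared TruSeq libraries from NB4 cells, aligned them with STAR (2.7 in the submitters' processing notes) to hg38, counted per gene with RSEM and compared groups in DESeq2 with 2 replicates per group, in separate fits for the knockdown and MC2580. The deposited tables list, for 60603 genes, the authors' comparisons and no value per library. They were used here because nothing else measures these genes. The deposited signal is the base mean, an average of normalized counts. The deposited log2 fold changes carry standard errors. The score deposited by the authors is the Wald statistic. The p-values deposited by the authors are from the DESeq2 Wald test, adjusted by Benjamini-Hochberg over 16673, 17913 and 18554 genes for shA1, shB2 and MC2580, and low genes have no adjusted value. With no counts per library, depth per library is unknown, and no count test, interval of a count or omission of a replicate was possible. P-values rest on a dispersion fitted per gene over all groups of a fit, with 2 replicates per group. They do not measure the spread of the compared groups alone.

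Group levels were solved from base mean and fold changes. As a check, the dispersions implied by the 2 hairpins' standard errors had a median ratio of 0.996 over 12463 genes whose base mean reached 50. Differences between comparisons were tested with a two-sided Wald test over all genes with an adjusted p-value in both, with the root of summed squares as standard error, and this step was tested on simulated data. Locations came from GENCODE 44, promoters from the RefSeq table of GRCh38.p14 and the primers from the study's primer list. Python 3.11.15, pandas 2.3.3 and scipy 1.17.1 were used. Named genes are the 8 members, GSE1, SLAMF9, up to 6 genes of each list that passed the threshold, the 2 neighbors on each side and the 5 genes nearest to CD48. Others named for a low base mean, a miss of the threshold or a role in the pathway were chosen after their values were seen. The members and lists were chosen with earlier results of these data known. One gene of the adaptor list is not reported here and was left out of its counts.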

Additional observations from a re-analysis of the deposited data

Results flagged for a closer look

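Of the pathway and marker lists, PRKCQ, PTPN11, LYN, CSF1R, CD3D and CTSG differed between shB2 and shA1 past the threshold by a Wald test of the difference itself, and no SLAM family member did with the standard error that is too wide for the shared EV. With the EV part taken out, SLAMF8 did (1.29, adjusted p-value 0.00142). The log2 fold change with shB2 minus that with shA1 was -1.88 for PRKCQ, -1.35 for PTPN11 and -1.28 for LYN. It was -1.36 for CSF1R, -1.24 for CD3D and 1.41 for CTSG. LYN, a myeloid Src family kinase, had a log2 fold change of 0.80 with shA1 and -0.49 with shB2, so that the hairpins moved it in opposite directions. CTSG, a granule protease, was -1.74 with shA1 and -0.33 with shB2. Of all genes tested, 3.03% differed between the hairpins.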

How the results depend on the processing

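CD48 passed the threshold in each of the 8 settings with shA1 and with shB2. With MC2580 the count of upregulated members went from 1 to 0 under a log2 fold change over 2 and under a Wald test against a log2 fold change of 1. With shB2 the count went from 2 to 1 under a log2 fold change over 2, under the Wald test against 1 and when p-values were adjusted over every gene with a p-value, since SLAMF8 was lost in each. With the EV part taken out of the standard error, 1 member (SLAMF8) in place of 0 differed between the hairpins. At an adjusted p-value under 0.05, 2 members in place of 1 differed between MC2580 and shB2, CD244 being added. Of the values of single members under the alternatives, 122 kept their call, 3 gained it and 5 lost it, and 0 changed sign. Recentring alone altered the log2 fold changes, so the other alternatives could change no sign. A member without a call could not gain one under a log2 fold change over 2 or the Wald test against 1. Part of this tally was therefore fixed in advance. Recentring moved no median by more than 0.02. No paired analysis was possible because the tables hold no value per library, and for the same reason no replicate was left out and edgeR was not run. SLAMF1, SLAMF6, LY9 and SLAMF7 had few counts and the widest standard errors of the members.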
